A study of Mus musculus with 12 samples.

Results

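The carbonic anhydrases described here are 9 genes, Car1, Car2, Car3, Car4, Car7, Car8, Car9, Car12 and Car13, taken by symbol from the 53715 genes of an RNA-seq count table of mouse intestinal mucosa. The table holds 12 libraries, 3 from each of 4 groups, which are the ileal and the colonic mucosa of control mice and of Slc39a8-IEC KO mice. All mice were C57BL/6J males of 8 weeks. The labels give the controls as Slc39a8-fl/fl and the KO mice as Slc39a8-fl/fl:Villin-Cre, so the labelled genotypes share the floxed allele and differ in the Cre transgene. The methods of the study describe its controls as a mixture that also held heterozygous floxed, wild-type and Villin-Cre mice, and which of these the sequenced controls were was not given. The Villin promoter, active in the epithelium of the intestine, drives Cre, while the RNA came from whole mucosa. In such bulk samples, fewer cells of a type and less RNA per cell cannot be told apart.

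Carbonic anhydrases convert carbon dioxide and water into bicarbonate and a proton, and back. The reaction takes place at a zinc ion held by histidine side chains. In the large intestine the enzymes supply the bicarbonate and protons that surface epithelial cells exchange for chloride and sodium, and they serve the uptake of salt, water and short-chain fatty acids. Slc39a8 encodes a transporter of manganese, zinc and other divalent metals, and the study asked what its loss in epithelial cells does to gene expression in the mucosa. In KO mice older than these, the study reported less manganese in ileum and colon and no difference in tissue zinc. The 9 genes differ in where their proteins sit. Car1, Car2, Car3, Car7 and Car13 encode cytosolic enzymes. Car4 encodes an enzyme tied to the outer face of the cell membrane, and Car9 and Car12 encode enzymes that span the membrane with the catalytic domain outside. Car8 encodes a relative that binds the inositol trisphosphate receptor and does not hydrate carbon dioxide.

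The coding sequence around the first zinc ligands is shown because it separates Car8 from the other 8 genes. Each line gives 27 bases of the coding strand in GRCm38 (mm10), from the GENCODE M21 transcript with that reading frame, with the codons of a pair of ligand positions in capitals. Every stretch lies within 1 exon.
Car1 (chr3:14776272-14776298, minus strand, exon 3): actcagttcCATtttCACtggggcaac
Car2 (chr3:14895060-14895086, plus strand, exon 3): atccagtttCACtttCACtggggctca
Car3 (chr3:14866841-14866867, plus strand, exon 3): cgccaattcCATcttCACtggggctcc
Car13 (chr3:14650697-14650723, plus strand, exon 3): cggcagttcCATttgCACtgggggtca
Car7 (chr8:104547725-104547751, plus strand, exon 3): aagcagctcCACttcCACtggggcaag
Car4 (chr11:84964158-84964184, plus strand, exon 4): gtacagttgCACctgCACtggtcaaat
Car9 (chr4:43508955-43508981, plus strand, exon 4): ttgcagttgCATctaCACtggggaact
Car12 (chr9:66747638-66747664, plus strand, exon 4): gagcagctgCACttgCACtgggggaac
Car8 (chr4:8221604-8221630, minus strand, exon 3): tatgaagttAGAtttCACtggggaaga
In 8 of the 9 genes both capital codons, CAT or CAC, encode histidine. Car8 has an arginine codon, AGA, at the first position. Relative to Car2, and counting from 1 at the start of the stretch, its substitutions in that codon are C10A, A11G and C12A. Over the 27 bases, Car8 shared 15 with Car2, fewer than the 16 of Car4 and the 20 of Car1, Car3 and Car13. Over whole coding sequences, identity between pairs of members was 57.5% (Car1 and Car4) to 67.9% (Car7 and Car9) of aligned bases.

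Car13, Car1, Car3 and Car2 lie next to each other on chromosome 3, in this order, within 259044 bases, with Car1 on the minus strand and the other 3 on the plus strand. The pseudogene Gm5843 between Car13 and Car1 had 26 counts in all 12 libraries together, and the lincRNA A930001A20Rik beside Car2 had 9, so the cluster's transcripts were those of the 4 enzymes. Car1 overlaps the processed pseudogene Gm16399, and 75 of its 1246 windows of 75 bases were found in another gene of the family or the cluster. Gm16399 was listed at 0 in every library. No window of the other 8 members was shared in this way. Car9 overlaps the antisense gene Gm12454, which had 1659 counts against 8896 for Car9 over the 12 libraries, and reads of the pair cannot be told apart if the counting took no account of strand.

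Total expected counts were 16749138 to 27903083 per library. Values below are CPM, counts divided by the library size after scaling with edgeR's TMM factors and given per 1e+06. Of the 9 members 8 passed edgeR's filter on low counts. Car7, with 1 to 14 counts per library, did not pass. Fold changes, their standard errors (SE) and Benjamini-Hochberg adjusted p-values come from edgeR's quasi-likelihood test over all 16558 genes that passed, and genes were called at an adjusted p under 0.1, the threshold of the study. Slc39a8 itself was lower in the KO libraries of both tissues. In ileum it stood at 8.39, 5.22 and 6.59 CPM in the controls and 4.35, 2.62 and 2.80 in the KO libraries. In colon the values were 20.8, 20.5 and 20.1 CPM against 7.35, 11.5 and 7.93. The groups overlapped in neither tissue (log2 fold change over both tissues −1.13, SE 0.17, adjusted p = 0.382; exact permutation p = 0.005, the smallest possible).

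Several ileal libraries stood apart, and this bears on the carbonic anhydrases. Control replicate 3 and KO replicate 1 of the ileum held few smooth muscle transcripts. The summed level of 6 muscle markers, none at 0, was 34.2 and 20.2 CPM there against 1814 to 2643 CPM in the remaining 4 from ileum and 2536 to 3954 CPM in colon. Ileal KO replicate 2 had the highest ileal level of Car1, of Car2 and of 6 of 9 other genes restricted to colon, as described after Car2. The 5 epithelial markers summed to 13318 to 16910 CPM in ileum and 6930 to 7930 CPM in colon, and all 5 were called lower in colon in both genotypes.

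**Figure D1:**
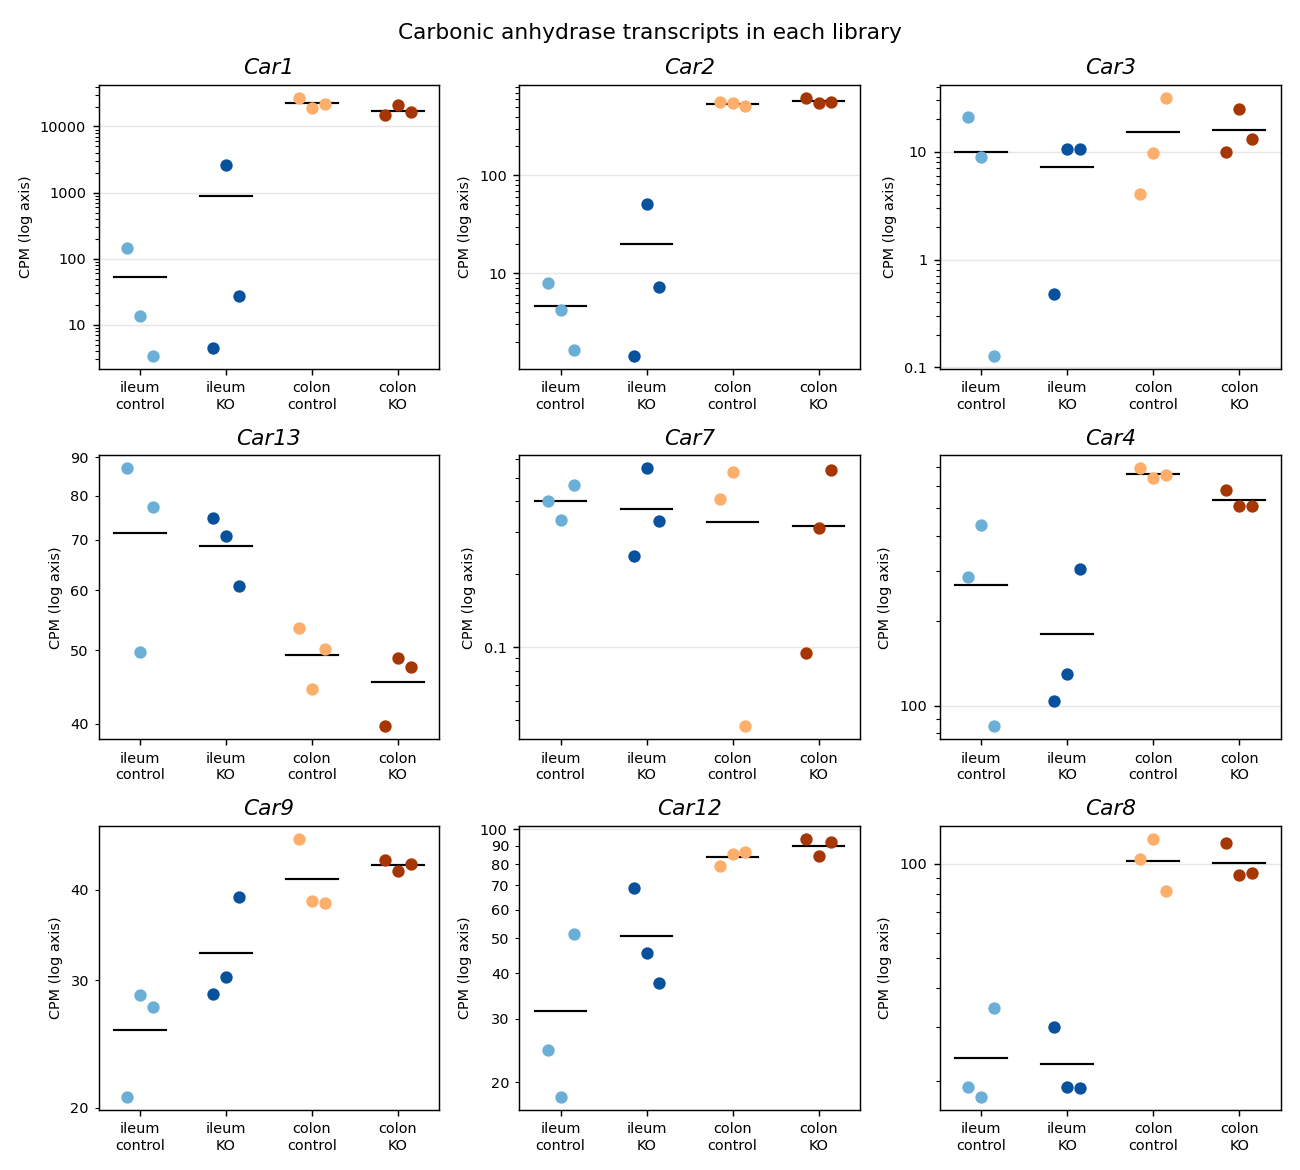
CPM of each of the 9 carbonic anhydrases (log axis) in the 12 libraries, by group; points are single libraries and lines are the means of 3 libraries. Car1 and Car2 lie far higher in colon, while Car4, Car12 and Car8 are higher in colon by a smaller factor and Car13 lies lower.

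Between control ileum and control colon, 6 of the 8 tested members were higher in colon and 1 was lower, against 16.2% and 19.6% of all genes. The median log2 fold change of the 8 was 1.36, against 0.02 over all genes tested. In the KO libraries 5 were higher, against 17.1% of all genes, and 1 was lower. Together they were 6 of 8, against 37.1% of all genes called in either direction, and the median of the 8 was 1.36 again. All 6 colonic libraries lay above all 6 ileal libraries for 5 of the 9 genes, Car1, Car2, Car4, Car12 and Car8, compared with 13.4% of all genes. For none of the 9 did all colonic libraries lie below all ileal ones, compared with 14.7% of all genes.

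**Figure D2:**
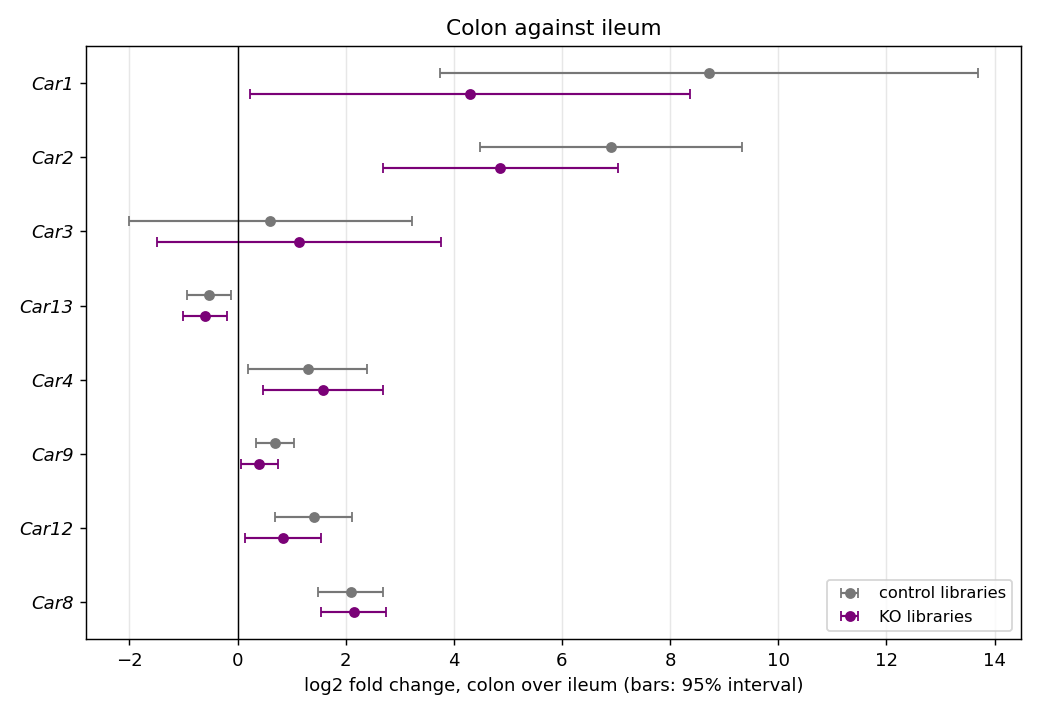
Fitted log2 fold change of colon over ileum for the 8 tested carbonic anhydrases, with 95% intervals, in control and in KO libraries. Car1, Car2 and Car3 show the widest intervals, and the fitted differences of Car1 and Car2 are smaller in the KO libraries; Car13 is the only member on the negative side.

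Car1, a cytosolic enzyme of colonic surface cells and of red blood cells, was the most abundant member in colon by far. Its levels were 27124, 18964 and 21513 CPM in control colon and 14884, 20993 and 16457 CPM in KO colon. It ranked as the gene with the second most counts in each of the 6 colonic libraries and took 1.66% to 2.64% of all their counts. In ileum it was at 143.6, 13.8 and 3.40 CPM in the control libraries and at 4.47, 2632 and 27.5 CPM in the KO libraries. Colon and ileum did not overlap, but the ileal libraries differed among themselves by a factor of 774, while the colonic libraries differed by 1.82. In control mice the log2 fold change of colon over ileum was 8.72 (SE 2.27, adjusted p = 0.0142), a fitted ratio of 422. In KO mice it was 4.30 (SE 1.86, adjusted p = 0.106), which did not pass, and without ileal KO replicate 2 it was 10.1 (adjusted p = 0.00289). It also passed without ileal control replicate 1 (4.29, adjusted p = 0.0831) or 3 (4.30, adjusted p = 0.0718), without the ileal pair with few muscle transcripts (3.72, adjusted p = 0.0543), with library size as the only scaling (4.596, adjusted p = 0.0782) and with limma-voom (7.94, adjusted p = 0.0146). In all, 9 of 24 alternatives gave a call. Over all alternatives the adjusted p of the KO comparison ranged from 0.00288 to 0.203.

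Car2, the fast cytosolic enzyme of most epithelia, followed the same libraries at a lower level. It stood at 564, 549 and 511 CPM in control colon and at 622, 552 and 565 CPM in KO colon, a range of 1.22 from lowest to highest. The ileal values were 7.92, 4.22 and 1.66 CPM in the controls and 1.43, 50.8 and 7.25 CPM in the KO libraries. Colonic levels thus exceeded every ileal level, and the ileal library with the most Car1 also had the most Car2. The log2 fold change was 6.90 in control mice (SE 1.10, adjusted p = 7.4e-04) and 4.86 in KO mice (SE 0.99, adjusted p = 0.00363), a fitted ratio of 119.6 and of 29.02. Without ileal KO replicate 2 the KO value was 7.04. The difference between the genotypes in the tissue effect did not pass for either gene (log2 −4.42, SE 2.40 for Car1 and −2.04, SE 1.24 for Car2, both adjusted p = 0.99998), and without this library it was 1.36 and 0.14.

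Ileal KO replicate 2 was set beside genes restricted to colon, chosen after values were seen as those with at least 20 CPM in each colonic control and under 1 CPM in each ileal control. There were 9 such genes other than members. In ileal KO replicate 2 their median was 4.04% of the colonic control mean, with 5 of the 9 over 1 CPM. In the other 2 ileal KO libraries the median was 0.363% and 0.961%, with none over 1 CPM, while the ileal controls were held under 1 CPM by the choice of genes. Car1 stood at 11.7% and Car2 at 9.39% of the colonic control mean in this library. Aqp8, a water channel of colonic surface cells, stood at 67.3 CPM, or 63.6%, and at 0 in 4 of the other 5 ileal libraries. Its colonic controls were themselves spread, at 106.3, 20.5 and 190.5 CPM, and without colonic control replicate 3 its percentage was 106.1%. Grin3a, Nxpe2 and Sstr1, in contrast, were at 0.530%, 0.85% and 0.80% in the same library, each below at least 1 other ileal library. The remaining 6 of the 9 genes were highest there among ileal libraries. The highest of the 8 genes besides Aqp8 was Slc16a9 at 8.61%. The 5 colonocyte surface markers, Aqp8 among them, summed to 5099 CPM in this library, within the 4135 to 5540 CPM of the other ileal libraries. Most of that sum was Krt20, at 3772 CPM. In colon the 5 summed to 3244 to 4327 CPM, no higher than in ileum, so the sum cannot tell colonic from ileal transcripts. The erythroid markers summed to 26.7 CPM in this library, within the 21.1 to 88.3 CPM of the other ileal libraries and below the 288 CPM of colonic control replicate 3.

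**Figure D3:**
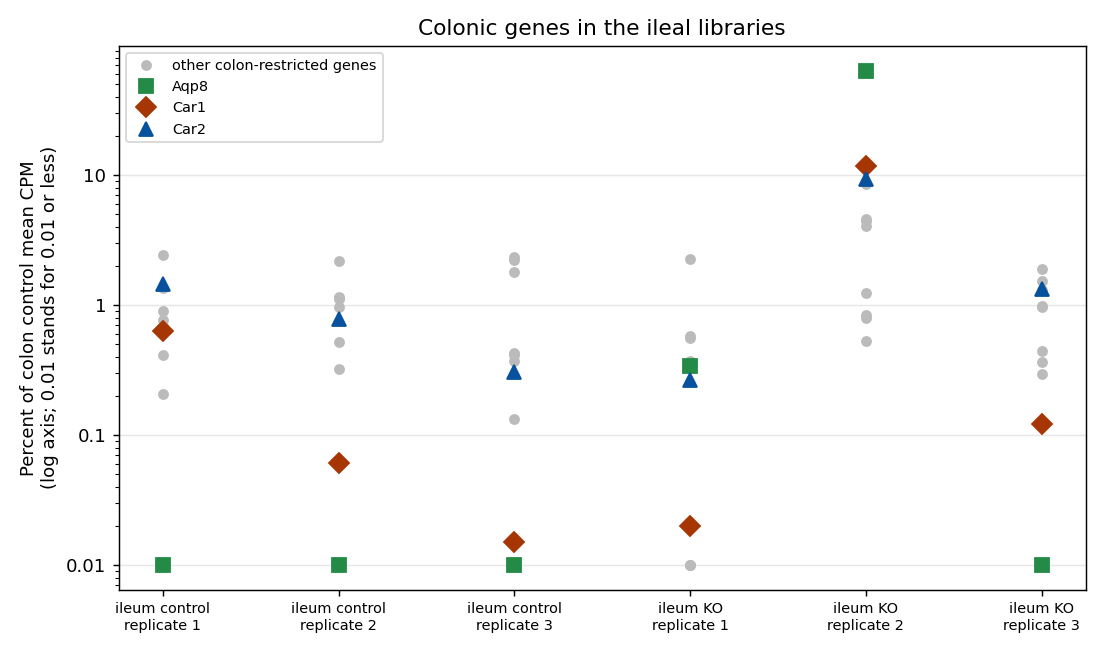
Level of Car1, Car2, Aqp8 and 8 other colon-restricted genes in each ileal library, as percent of the mean of the 3 colonic controls (log axis). In ileal KO replicate 2 Aqp8 reached 63.6%, Car1 11.7% and Car2 9.39%; in the other ileal libraries Car1 stayed below 1%.

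Car3, an enzyme of low activity that is abundant in fat and slow skeletal muscle, showed no tissue difference beyond its spread. It was at 20.96, 8.999 and 0.128 CPM in control ileum and at 0.477, 10.6 and 10.6 CPM in KO ileum. The colonic values were 4.05, 9.64 and 31.7 CPM in controls and 9.94, 25.0 and 13.1 CPM in KO libraries. The groups overlapped, and the log2 fold change was 0.61 in control mice (SE 1.19, adjusted p = 0.735) and 1.14 in KO mice (SE 1.201, adjusted p = 0.510). Both low libraries were the ileal ones with few muscle transcripts, where Car3 had 3 and 8 counts. Adipoq, which encodes the fat cell hormone adiponectin, was at 0 in the same pair. The 4 skeletal muscle markers were low there as well, at a sum of 8.63 and 13.95 CPM against 39.3 to 67.0 CPM in the other 4 ileal libraries and 16.5 to 24.4 CPM in colon. Over the 12 libraries, the genes whose log2 CPM followed Car3 most closely were Cfd, Adipoq and Cd36 (Pearson r 0.98, 0.98 and 0.98), all of which are expressed in fat cells. Taken on deviations from the 4 group means, the closest were Fgf13, Scrn1 and Cd36 (r 0.985 for each). The points share tissue and library makeup, so r is given as a description. The 6 fat cell markers together summed to 46.9 to 121 CPM, a narrower range, since Cidec was at 24.1 to 53.1 CPM in every library. Among ileal libraries Cidec was highest in the pair with few muscle transcripts, at 43.8 and 53.1 CPM. The part of fat and skeletal muscle in the Car3 values was not tested.

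Car13, a cytosolic enzyme, was the only member lower in colon. In ileum its levels were 87.0, 49.8 and 77.4 CPM in controls and 74.7, 70.8 and 60.8 CPM in KO libraries. In colon they were 53.5, 44.4 and 50.1 CPM in controls and 39.7, 48.8 and 47.6 CPM in KO libraries. A single ileal library, control replicate 2, fell within the colonic range. The log2 fold change was −0.53 in control mice (SE 0.19, adjusted p = 0.0530) and −0.60 in KO mice (SE 0.19, adjusted p = 0.0327). Both calls were lost with library size as the only scaling (−0.32 and −0.33, adjusted p = 0.274 and 0.246), the largest adjusted p of any alternative tried for each. The call in control mice also ended when its 6 libraries were fitted alone (−0.53, adjusted p = 0.138), without ileal control replicate 1 or 3 or without colonic control replicate 2 or 3 (adjusted p = 0.108 to 0.166), and that in KO mice without colonic KO replicate 1 (−0.53, adjusted p = 0.117). In the main fit Car13 was thus called lower in colon. In the same cluster on chromosome 3, colonic Car1 and Car2 lay above every ileal level, and Car3 was not called.

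Car7, a cytosolic enzyme best known from brain, was near the limit of detection. It had 4 to 14 counts in the ileal libraries and 1 to 13 in the colonic ones, or 0.0471 to 0.547 CPM. A limit of 3 counts corresponds to 0.108 to 0.179 CPM per library, for counting error alone, and 2 colonic libraries were below it. Differences between groups were not detectable at this depth.

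Among the enzymes that act outside the cell, Car4 was the most abundant. Car4, anchored to the membrane by a lipid, was at 284, 436 and 84.6 CPM in control ileum and at 104, 129 and 304 CPM in KO ileum. In colon it was at 691, 640 and 653 CPM in controls and at 582, 511 and 509 CPM in KO libraries. All colonic libraries were above all ileal ones. The log2 fold change was 1.30 in control mice (SE 0.50, adjusted p = 0.0746) and 1.58 in KO mice (SE 0.51, adjusted p = 0.0368). The call in control mice was lost when the 6 libraries of the comparison were fitted alone (adjusted p = 0.105, over all alternatives 0.0230 to 0.145), with the replicate number as a block (1.33, adjusted p = 0.1202), and without any 1 of the 6 except ileal control replicate 2. Without ileal control replicate 3 the value was 0.86. In KO mice the call ended without ileal KO replicate 1 (1.30, adjusted p = 0.107) or 2 (1.39, adjusted p = 0.115).

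Car9, which spans the membrane and is a classic target of the hypoxia-inducible factor, differed less between tissues. It was at 20.7, 28.6 and 27.5 CPM in control ileum, 28.7, 30.3 and 39.1 CPM in KO ileum, 47.1, 38.6 and 38.4 CPM in control colon and 44.0, 42.5 and 43.4 CPM in KO colon. Ileal KO replicate 3 reached the lower edge of the colonic range. The log2 fold change was 0.69 in control mice (SE 0.16, adjusted p = 0.00762) and 0.40 in KO mice (SE 0.16, adjusted p = 0.0783), and the call in KO mice was lost without the pair of ileal libraries with few muscle transcripts (0.33, adjusted p = 0.152, over all alternatives 0.0113 to 0.220). It also ended with the replicate number as a block (0.41, adjusted p = 0.1095), without any 1 of the KO libraries except ileal KO replicate 3, or without colonic control replicate 2, at values of 0.32 to 0.42.

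Car12, the other membrane-spanning enzyme, was at 24.6, 18.2 and 51.4 CPM in control ileum and at 68.7, 45.5 and 37.6 CPM in KO ileum. The highest value of each ileal group belonged to the library with few muscle transcripts. In colon it stood at 79.0, 85.4 and 86.7 CPM in controls and at 94.1, 84.2 and 92.1 CPM in KO libraries, above every ileal value. Its log2 fold change was 1.41 in control mice (SE 0.33, adjusted p = 0.00761) and 0.83 in KO mice (SE 0.32, adjusted p = 0.0735). The latter call ended without any 1 of the KO libraries except ileal KO replicate 1, or without colonic control replicate 3, at values of 0.66 to 0.88 and adjusted p-values of 0.106 to 0.219. Without ileal control replicate 3 the control value was 1.95.

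Car8, the relative with the arginine codon, was also higher in colon. It stood at 19.2, 17.8 and 34.5 CPM in control ileum and at 29.9, 19.2 and 19.1 CPM in KO ileum. The colonic values were 104, 120 and 81.8 CPM in controls and 116, 92.4 and 93.7 CPM in KO libraries, and no ileal library came near them. The log2 fold change was 2.09 in control mice (SE 0.27, adjusted p = 1.8e-04) and 2.15 in KO mice (SE 0.27, adjusted p = 1.5e-04). Over the 12 libraries the genes most like Car8 were Sgsm3, Chga and Tbc1d4 (Pearson r 0.99 for each, as a description), of which Chga is a marker of enteroendocrine cells. Chga was at 59.3 and 60.4 CPM in the ileal pair with few muscle transcripts, at 21.9 to 27.4 CPM in the other 4 of the ileum and at 134 to 232 CPM in colon.

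Set against transcript length, the members followed a different order in each tissue. Levels were divided by the kilobases of all annotated exons of the gene, which gives CPM per kilobase. In control colon Car1 stood at 18056 ± 3345 CPM per kilobase (SD, n = 3), Car4 at 336 ± 13.6 and Car2 at 223 ± 11.2, with no overlap between these ranges. Car8 followed at 26.5 ± 5.02, Car13 at 21.5 ± 1.99 and Car9 at 17.95 ± 2.15, and these neighbours overlapped. Car12 at 11.02 ± 0.55 and Car3 at 5.28 ± 5.10 overlapped, and Car7 at 0.0902 ± 0.0689 came last. In control ileum Car4 led at 137 ± 89.7 CPM per kilobase, followed by Car1 at 42.9 ± 62.6 and Car13 at 31.1 ± 8.41, and neighbouring ranges overlapped among these 3. Car9 came next at 11.1 ± 1.86, apart from its neighbours. Car8 at 6.19 ± 2.39, Car12 at 4.13 ± 2.32, Car3 at 3.50 ± 3.65 and Car2 at 1.90 ± 1.30 overlapped in turn, and Car7 was at 0.110 ± 0.0184. Car2 thus moved from the eighth place in control ileum to the third in control colon. In KO colon the order of the 9 genes was the same as in control colon. In KO ileum Car1 came first at 712 ± 1210 CPM per kilobase, through replicate 2, and Car4 next at 91.0 ± 55.4, with overlapping ranges.

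Of the sum of the 9 members in CPM, Car1 made up 90.8% to 94.6% in the 6 colonic libraries. In ileum its share was 1.21% to 23.6% in 5 libraries and 88.1% in KO replicate 2. Car4 made up 30.1% to 75.5% in the 5 ileal libraries and 4.33% in KO replicate 2. One enzyme thus held most of the family's transcripts in colon, while in ileum Car4 had the highest CPM of the members in 5 libraries and Car1 in KO replicate 2.

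The ileal pair with few muscle transcripts, 1 library of each genotype, also differed from the other 4 ileal libraries in 6 members. Mean Car4 was 94.2 CPM in the pair and 288 CPM (129 to 436) in the other 4. Mean Car12 was 60.0 CPM against 31.5 CPM (18.2 to 45.5), and mean Car8 was 32.2 CPM against 18.8 CPM (17.8 to 19.2). Car1, Car2 and Car3 were lowest in the pair, at a mean of 3.94 CPM against 13.8 to 2632 CPM for Car1, 1.54 against 4.22 to 50.8 CPM for Car2 and 0.302 against 8.999 to 20.96 CPM for Car3. For all 6 genes both libraries of the pair lay outside the range of the others. The share of all genes that separated in this way was not counted, so the 6 are given as a description. The pair also stood apart over all tested genes. On the second principal component of log2 CPM (18.2% of the variance) it was at −77.7 and −78.3, and the other ileal libraries were at 38.6 to 61.4. Car13 (76.1 against 67.1 CPM) and Car9 (28.1 against 29.7 CPM) did not separate. Lyz1, a Paneth cell lysozyme, ranked after Sephs1 and Acss2 among genes whose deviations from the group means were most like those of Car8 (r 0.98). It was at 6360 and 4742 CPM in the pair and at 1839 to 2459 CPM in the others. The deviations of Car4 ran most closely with Apoc2 (r 0.98), an apolipoprotein of absorptive cells, which was at 15.1 and 17.2 CPM in the pair and at 23.7 to 92.9 CPM in the others. Both genes were picked by this likeness, in which the pair weighs heavily, so their separation of the pair adds no further evidence. In colon, where Car8 and Car4 were highest, Lyz1 was at 2.20 to 4.51 CPM and Apoc2 at 1.25 to 2.07 CPM. The part of cell makeup in these values was not tested.

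**Figure D4:**
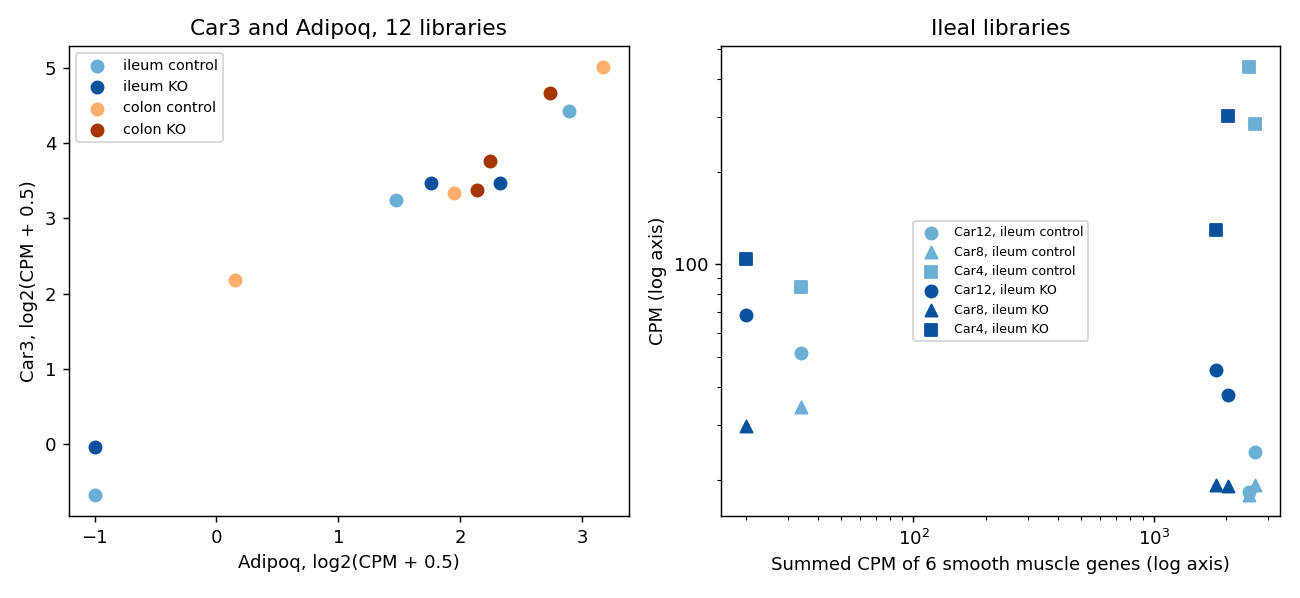
Left, Car3 against Adipoq in the 12 libraries, both as log2(CPM + 0.5), where the 2 ileal libraries with Adipoq at 0 also have the lowest Car3. Right, CPM of Car12, Car8 and Car4 in the 6 ileal libraries against the summed CPM of 6 smooth muscle genes (log axes), where the 2 libraries at 20.2 and 34.2 CPM have more Car12 and Car8 and less Car4 than the others.

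Between Slc39a8-IEC KO and control libraries, no carbonic anhydrase was called by edgeR over both tissues, in ileum or in colon, and 0% of all genes tested were called in each case. The deleted gene Slc39a8 was missed as well (edgeR adjusted p = 0.382 over both tissues). The lack of a call therefore does not show that a member was unchanged. limma-voom also called none of the 8, and DESeq2 none of those to which it gave an adjusted p, which left out Car2 in each comparison and Car1 over both tissues. At an unadjusted p under 0.05 the count was 0 of 8 over both tissues, compared with 3.87% of all genes, 3 of 8 in ileum (Car1, Car2 and Car9), compared with 1.52%, and 0 of 8 in colon, compared with 2.33%. The difference of the genotype effect between tissues gave 0 of 8 members, compared with 0% of all genes called and 1.02% at an unadjusted p under 0.05. None of the 9 genes was apart in the same direction in both tissues, as 0.411% of all genes were. The median log2 fold change of the 8 members was 0.08 over both tissues, 0.15 in ileum and 0.03 in colon, against 0.0018, −0.0019 and 0.0050 for all genes.

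**Figure D5:**
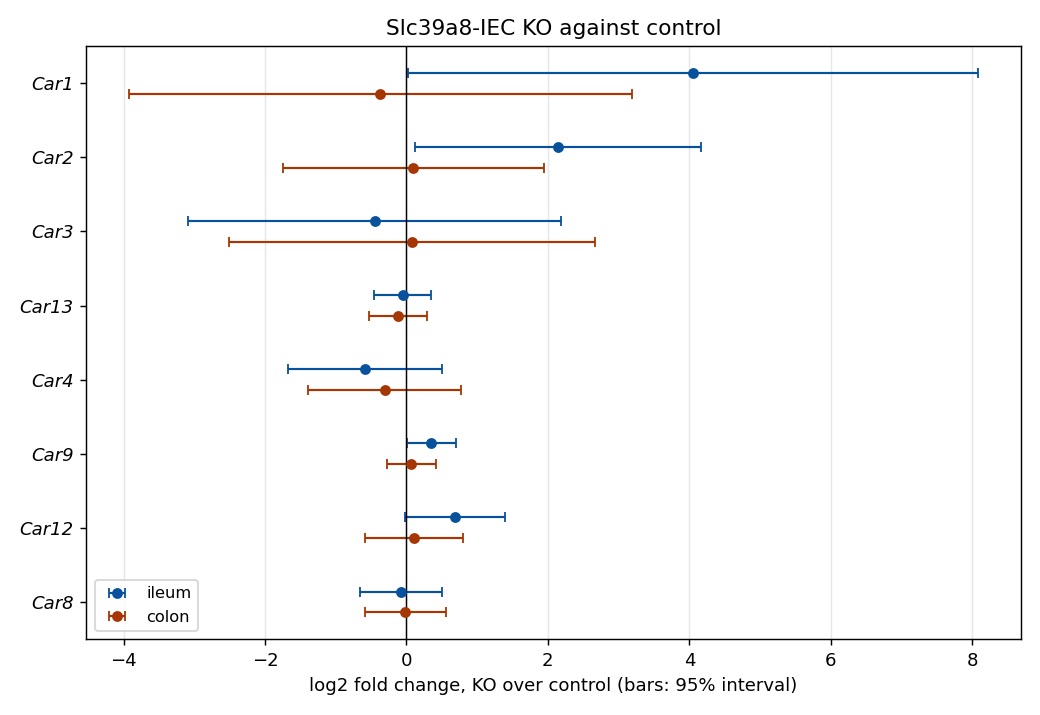
Fitted log2 fold change of Slc39a8-IEC KO over control for the 8 tested carbonic anhydrases in ileum and in colon, with 95% intervals. Most intervals include 0; those of Car1, Car2 and Car9 in ileum lie just above it, with adjusted p-values of 1.

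In ileum the largest fitted changes were those of Car1 (log2 fold change 4.05, SE 1.84, unadjusted p = 0.0487, adjusted p = 1) and Car2 (2.14, SE 0.92, unadjusted p = 0.0393, adjusted p = 1). Both rested on ileal KO replicate 2. Without it the values were −1.73 for Car1 and −0.04 for Car2, with adjusted p-values of 0.99737 and 0.99985. The exact permutation test in ileum gave p = 0.6 for Car1 and 0.7 for Car2, where 3 libraries against 3 allow none below 0.1. Within the pair with few muscle transcripts, the KO library had 1.32 times the Car1 of the control library and 0.863 times the Car2.

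Car9 was the only member whose ileal KO libraries (28.7 to 39.1 CPM) all lay above the controls (20.7 to 28.6 CPM), compared with 3.70% of all genes that did not overlap in either direction. The gap between the groups was small, and the log2 fold change was 0.35 (SE 0.16, adjusted p = 1). Exact permutation gave p = 0.1 in ileum, the smallest possible there, and 0.075 over both tissues. In colon the Car9 groups overlapped (log2 fold change 0.07, SE 0.16). The difference between the tissues was −0.29 (95% interval −0.78 to 0.21, adjusted p = 0.99998). Car12 had a log2 fold change of 0.68 in ileum (95% interval −0.02 to 1.39, adjusted p = 1), and the KO level was 1.34 times the control level within the pair with few muscle transcripts and 1.94 times among the other 4. Its groups overlapped.

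In colon, Car4 was the only member whose groups did not overlap. The KO libraries were at 509 to 582 CPM and the controls at 640 to 691 CPM, a ratio of means of 0.807, and 12.8% of all genes did not overlap in colon. The log2 fold change was −0.31 (SE 0.49, adjusted p = 1) when the 4 groups shared 1 estimate of the spread, to which the wide ileal values contribute. With the 6 colonic libraries alone the SE was 0.12 and the adjusted p 0.600, the lowest of any alternative tried. Exact permutation gave p = 0.1 in colon, the smallest possible. Ileal Car4 overlapped between genotypes (log2 fold change −0.58, 95% interval −1.67 to 0.50). The Car1 ratio of means in colon was 0.774, with overlapping groups.

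Some members bounded a genotype effect closely and others did not. In colon the 95% interval of the log2 fold change was −0.28 to 0.41 for Car9, −0.53 to 0.29 for Car13, −0.59 to 0.56 for Car8 and −0.59 to 0.81 for Car12. For Car1 it was −3.92 to 3.19 and for Car3 −2.51 to 2.66. In ileum the interval was −0.46 to 0.35 for Car13 and −0.66 to 0.51 for Car8, while that of Car3 was −3.08 to 2.18. Changes in Car3 of several-fold in either direction were thus within the intervals in both tissues. The wide colonic interval of Car1 used a spread shared with the ileal libraries. In the 6 colonic libraries alone the log2 fold change was −0.37 (SE 0.24) for Car1 and 0.09 (SE 0.12) for Car2.

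Of the 7 other family genes in the table, Car5a, Car5b, Car6, Car10, Car11, Car14 and Car15, 4 passed the filter and all were low. Car11, a relative without catalytic activity, was the one called, 1 of 4 against 16.2% of all genes called higher in control colon and 17.1% in KO colon. It was at 0.0425 to 0.889 CPM in the ileal libraries and at 2.36 to 3.31 CPM in colon (log2 fold change 2.31, SE 0.70, adjusted p = 0.0290 in control mice, and 2.99, SE 0.72, adjusted p = 0.00903 in KO mice). Of the enteric neuron markers Elavl4, Uchl1, Snap25 and Tubb3, Snap25 was called higher in control colon (adjusted p = 0.0401), and all but Uchl1 were called higher in KO colon. Their sum was 1.49 to 14.3 CPM in ileum and 16.2 to 41.3 CPM in colon, and their part in the Car11 values was not tested. The sum over all 7 genes was at most 7.29 CPM in any library.

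Genes that carry bicarbonate, chloride or protons across the same epithelial membranes were also compared between the tissues. Of 12 genes on this list, 11 were tested, and 8 were higher and 2 lower in colon in both genotypes, with a median log2 fold change of 0.95 in control mice. Of all genes, 16.2% were higher and 19.6% lower in control colon, and 37.1% were called in either direction in KO mice. Slc9a3, the apical sodium and proton exchanger, was at 6.38 to 33.1 CPM in ileum and 328 to 580 CPM in colon (log2 fold change 4.45, SE 0.50, adjusted p = 5.9e-05). In ileal KO replicate 2 it was at 21.7 CPM, within the range of the other ileal libraries. Slc26a3, the apical chloride and bicarbonate exchanger, was at 139 to 266 CPM in ileum and 374 to 689 CPM in colon (1.66, SE 0.28, adjusted p = 0.00101). Its highest ileal value was that of KO replicate 2, the library with the most Car1 and Car2. Slc26a6, an anion exchanger of the same family, ran the other way, at 246 to 340 CPM in ileum and 1.24 to 2.82 CPM in colon (−7.06, SE 0.27, adjusted p = 4.1e-08). Slc4a4, the basolateral sodium bicarbonate cotransporter, was also lower in colon (−0.66, SE 0.16, adjusted p = 0.01002), and Cftr was not called (−0.27, SE 0.39). edgeR called none of the 11 between genotypes.

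Car9 was set beside 9 other hypoxia-inducible genes, of which 3 were higher and 1 was lower in control colon, against 16.2% and 19.6% of all genes. Slc2a1, a glucose transporter, was at 9.18 to 23.8 CPM in ileum and 155 to 202 CPM in colon (log2 fold change 3.79, SE 0.27, adjusted p = 1.6e-06). Ndrg1 (2.40, SE 0.24) and Ankrd37 (0.96, SE 0.21) were the other genes called higher, and Pgk1, a glycolytic enzyme, was the lower one (−0.38, SE 0.11, adjusted p = 0.0280). The median of the 9 was 0.03, and edgeR called none between genotypes. The letters ACGTG, 1 form of the core bound by the hypoxia-inducible factor, were searched on both strands in the RefSeq promoter windows of GRCm38.p6. Other forms of the core were not searched. The windows run from 250 bases before to 50 after a start site. The table held windows for Car4, Car7 (several), Car9 and Car12, and none for the other members. The letters occurred once for Car9, starting 18 bases before the start site, and once for Car4, beside the start site, and not in the windows of Car7 and Car12; 19.6% of 32851 windows held them. The stretches are shown because Car9 is the member known for this control, with the match, read here on the other strand, in capitals.
Car9 (chr4:43506996-43507025, plus strand): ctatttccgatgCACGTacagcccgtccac
Car4 (chr11:84957744-84957773, plus strand): ggagccgactccCACGTctagccgtccggg
The core of the intestinal factor CDX2, TTTATG, was found in none of the windows of Car4, Car7, Car9 and Car12 and in 11.9% of all windows. Car1, Car2 and Car8 had no window to search.

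Among members, Car1 and Car2 followed each other most closely over the 12 libraries (Pearson r of log2 CPM 0.99) and also after the 4 group means were removed (r 0.97), where ileal KO replicate 2 weighs heavily. Outside the family, Car1 was most like Sptssb, Ceacam12 and Mboat1 (r 0.98, 0.98 and 0.97), and Car2 was most like Ceacam12, Foxd2os and Sptssb (r 0.995, 0.993 and 0.992). Sptssb, a subunit of the enzyme that starts sphingolipid synthesis, was at 0.680 to 3.86 CPM in 5 ileal libraries, at 20.3 CPM in ileal KO replicate 2 and at 327 to 733 CPM in colon. Car13 was most like Arhgef3 (r 0.97), Car4 like Ociad2 (r 0.97), Car9 like Coa3 (r 0.96) and Car12 like Zfp2 (r 0.99). Most of these values reflect the split between tissues, which all 12 points share. After the group means were removed, Car4 ran opposite to Car12 (r −0.95) and Car3 opposite to Car8 (r −0.92), in which the ileal pair with few muscle transcripts takes part.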

How the data were processed

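RNA of ileal and colonic mucosa was sequenced in 12 libraries, 3 per tissue and genotype. The authors deposited expected counts per gene, not normalized. The submitters' processing notes name STAR and mm10. The study's reporting summary adds that reads had to map uniquely, that duplicates were taken out by UMI-tools and that FeatureCounts did the counting; whether it produced these expected counts was not stated. Of the members' 108 values, 107 were whole within 0.005. The 92 spike-in rows held 0 counts and were left out. Gene identifiers were matched without version, and 53620 of 53715 had a symbol.

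Expected counts were rounded. edgeR 4.0.16 in R 4.3.3 (filterByExpr, TMM, glmQLFit, glmQLFTest) was fitted to 16558 genes in a model of the 4 groups. Genotype over both tissues had tissue as an additive term. Adjusted p-values are from edgeR unless DESeq2 1.42.0 or limma-voom (limma 3.58.1) is named. Intervals are 95% and use the test's degrees of freedom. Log2 CPM used a prior count of 2. Exact permutation tests were two-sided on log2(CPM + 0.5), with 400 arrangements over both tissues and 20 within one. Identity of coding sequences was counted over the aligned bases of global alignments. The steps were tested on simulated data. Figures used matplotlib 3.10.9 in Python 3.11.15.

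The 9 members, the gene lists and the division of ileal libraries by muscle transcripts were chosen with earlier results of these data known. Named genes are all members, Slc39a8, listed genes that were called or lowest or highest of a list, the cluster's neighbours, and, for each tested member, the 3 genes with a mean of at least 1 CPM and the highest Pearson r over libraries. The lists are other family genes, bicarbonate and proton transport, hypoxia-inducible genes, epithelium, colonocyte surface, fat cells, smooth muscle, erythroid cells, enteric neurons and skeletal muscle. One gene of the enteric neuron list is not reported here, and the sum of that list leaves it out. The labels do not say whether both tissues came from the same mice, and the tests take libraries as independent. Alternatives were other scaling factors, filters and tools, unrounded counts, a threshold of 0.05, a replicate block, the 6 libraries of a comparison alone, each library left out, and the longest transcript for length.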

Additional observations from a re-analysis of the deposited data

How the results depend on the processing

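The count of carbonic anhydrases called between tissues was 5 to 7 in control mice and 4 to 7 in KO mice under other scaling, filters, tools, rounding, threshold, library subsets and the replicate block. With single libraries left out it was 5 to 7 in control mice and 3 to 7 in KO mice, the lowest without colon KO replicate 1, where Car9, Car12 and Car13 lost their call. The count between genotypes was 0 in each of these. DESeq2 called 4 genes over both tissues, 2 in ileum and 1 for the difference, and limma-voom 1 over both tissues and 1 in ileum; no member was among them. The adjusted p-values that DESeq2 gave as not available, for Car2 in each comparison and for Car1 over both tissues, stayed out of these counts. Without ileal control replicate 1 the control tissue difference of Car1 was 11.4 and that of Car2 7.54, and without colonic control replicate 3 that of Car3 was −0.56.

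The replicate numbers were not taken to pair the libraries. Of 18 same-numbered pairs, 5 had a correlation of deviations over 0.1 (range −0.69 to 0.40). Of the 6 that join ileum and colon of 1 genotype, and so could be 1 mouse, 3 did (range −0.08 to 0.25). Differently numbered pairs of this kind ran from −0.21 to 0.16, where only ileal control replicate 3 with colonic control replicate 1 exceeded 0.1. Over all other groups, 4 of 12 libraries correlated best with their own number. Those groups include the same tissue of the other genotype, which cannot be 1 mouse. Whether the numbers pair libraries was not settled by these values. With the replicate block, 6 members were called between tissues in control mice and 5 in KO mice, and 0 between genotypes; Car4 in control mice and Car9 in KO mice lost their call.

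Several genotype effects, none of them called, changed sign. With limma-voom, Car3 was 0.57 over both tissues, 0.94 in ileum and −0.52 for the difference. With library size only, Car8 was 0.0208 over both tissues and 0.0840 in colon, and Car13 0.0014 in ileum. Without a filter on low counts Car8 was 0.0129 in colon. Without the ileal pair with few muscle transcripts, Car8 was 0.0134 over both tissues, 0.0338 in ileum, 0.0011 in colon and −0.0327 for the difference. With single libraries left out, ranges over both tissues were −0.94 to 2.42 for Car1, −0.43 to 0.34 for Car3 and −0.15 to 0.13 for Car8. In ileum they were −1.73 to 6.70 for Car1, −0.0380 to 2.78 for Car2, −1.04 to 0.69 for Car3, −0.26 to 0.11 for Car13 and −0.32 to 0.30 for Car8. In colon they were −0.39 to 1.24 for Car3 and −0.15 to 0.12 for Car8. For the difference they were −7.07 to 1.36 for Car1, −2.68 to 0.14 for Car2, −0.62 to 1.70 for Car3, −0.23 to 0.14 for Car13, −0.27 to 0.89 for Car4 and −0.30 to 0.31 for Car8, and for the control tissue difference of Car3 −0.56 to 1.75. The causes were not tested. With the longest transcript as length, Car12 came before Car13 and Car9 in colon and before Car8 in control ileum.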

Other observations

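Further genes of the colonic surface list moved in both directions between tissues. In control mice Aqp8, Slc26a3 and Guca2a were called higher and Krt20 and Ceacam20 lower in colon, against 16.2% and 19.6% of all genes. Guca2a, which encodes guanylin, was at 558 to 868 CPM in ileum and 1307 to 1788 CPM in colon (log2 fold change 1.13, SE 0.20, adjusted p = 0.00171), and Krt20, a keratin of mature surface cells, was at 3075 to 4450 CPM in ileum and 1244 to 1622 CPM in colon (−1.37, SE 0.19, adjusted p = 2.7e-04). In KO mice Aqp8 was not called (adjusted p = 0.450), with 67.3 CPM in ileal KO replicate 2. Acta1 was called lower in colon among the 3 tested skeletal muscle genes (−2.88, SE 0.58, adjusted p = 0.00342), and none of the 5 tested erythroid, 6 fat cell or 6 smooth muscle genes was called between tissues.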
